A study of Rattus norvegicus with 8 samples.

Results

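The spectrins, ankyrins and adducins of the membrane skeleton were followed as 9 genes chosen by symbol: Sptan1, Sptbn1 and Sptbn4 for the spectrins, Ank1, Ank2 and Ank3 for the ankyrins, and Add1, Add2 and Add3 for the adducins. They are 9 of the 28909 gene symbols in the count table and 9 of the 14309 that passed the filter of more than 20 reads in at least 2 libraries. They were picked by symbol, with earlier results of these data known, and all 9 passed the filter. Primary hippocampal neurons of Sprague-Dawley rats were grown on porous cell culture inserts, through which neurites but not cell bodies pass, and ribosome-depleted total RNA was sequenced separately from the somatic and the process compartment. Picrotoxin (PTX), an antagonist of the GABA-A receptor that removes inhibition and raises network activity, was present for 48 h from day in vitro (DIV) 18 to 20, and the control cultures received the ethanol vehicle. Each of the 4 groups, somata control, somata PTX, processes control and processes PTX, holds 2 libraries numbered 1 and 2. The sources used here do not state that the 2 libraries of a group come from separate cultures, so p-values measure only the spread between these libraries, which may be technical.

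Spectrin is a long rod of α and β chains that crosslinks short actin filaments into a lattice beneath the plasma membrane, and in axons this lattice is periodic. Ankyrins fasten the β chain to membrane proteins such as sodium channels and cell adhesion molecules, and adducins cap the fast-growing actin ends and help spectrin to bind there. In neurons the skeleton is known for holding the axon initial segment together, for the mechanical stability of axons and, in the case of adducin, for a part in the growth and stability of synapses.

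The libraries held 12290890 to 18455662 counted reads. Mitochondrial transcripts took 22.56 to 26.71% of the reads of the somatic libraries and 68.52 to 72.52% of those of the process libraries, and the TMM factors that allow for this were 1.81 to 1.93 and 0.486 to 0.570. Levels are given as CPM, the counts relative to the library size after this scaling, and fold changes as log2. They rest on at least 255 reads per library for Ank1, the least covered of the 9, and on 10666 or more for Sptan1, Sptbn1 and Ank2. Gene lengths were not used here, so levels are compared between conditions and not between genes. All 6 neuronal markers checked, Rbfox3, Snap25, Tubb3, Syt1, Map2 and Slc17a7, were detected in every library. So were all 6 astrocyte markers, whose summed level was 3458 to 3908 CPM in somata control and 12430 to 13910 CPM in processes control. The 3 endothelial markers found in the table summed to at most 0.893 CPM and the 4 erythroid ones to at most 1.37 CPM. The 5 microglial markers found there summed to at most 1.73 CPM. Cldn5 of endothelial cells and Hbb of erythroid cells had 0 counts in every library, whereas Alas2 of erythroid cells had 2 to 33 reads. The 7 oligodendrocyte lineage markers summed to 139.5 to 300.8 CPM over the 8 libraries, and the 4 fibroblast markers to 15.2 to 49.0 CPM. The cultures hold glia beside the neurons, and the share of any transcript that came from each cell type was not tested. In such bulk libraries fewer cells of a type and less RNA per cell cannot be told apart.

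The question of the study is how PTX changes RNA in each compartment. In the process compartment Add2 fell by 43.3% (log2 fold change -0.82, standard error 0.137, adjusted p = 0.0104, edgeR quasi-likelihood test with Benjamini-Hochberg adjustment over all 14309 genes). It was the only one of the 9 genes that passed the threshold there, 1 of 9 lower against 2.1% of all genes tested. The study had already named Add2 as lower in processes from the same libraries, so this share is not independent support. Sptan1 and Ank2 had values of -0.35 and -0.32 in processes and -0.31 and -0.34 in somata, with adjusted p-values between 0.16 and 0.374. Sptbn1 stood at 0.26 in processes. In the somatic compartment none of the 9 genes passed, where 3.59% of all genes tested did in either direction. Of the 9, 2 had an unadjusted p under 0.05 in somata and 3 in processes (edgeR), as did 2229 and 2369 of the 14309 genes tested. The likelihood ratio test called 0 of the 9 in somata and 1 in processes, against 972 and 949 of all genes. DESeq2 called 0 of the 9 in somata. The median of the 9 log2 fold changes was -0.11 in somata and -0.19 in processes, beside -0.01 over all genes tested in either compartment. The summed level of the 6 neuronal markers was 1836 to 2048 CPM in somata control and 1578 to 1749 CPM in somata PTX, and 5089 to 5382 CPM in processes control and 3950 to 4614 CPM in processes PTX. Of these markers 1 fell in somata (Rbfox3) and 1 rose in processes (Slc17a7) with PTX. All 6 had values below 0 in somata and 5 of 6 in processes, with an unadjusted p under 0.05 for 3 and 5 of them, and the likelihood ratio test called 1 and 2. The astrocyte markers summed to 2600 to 3619 CPM in somata PTX and 10500 to 11790 CPM in processes PTX, with 1 of 6 lower in somata and 0 called in processes, where 2 had an unadjusted p under 0.05 in edgeR, the likelihood ratio test called 1 and the block model 2. The part of the cell types in the PTX contrasts was not tested.

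More of the 9 were called in a model that uses the replicate number. With the number added to the model as a block, Sptan1, Ank2 and Add2 were lower in both compartments. The adjusted p-values with the block were 0.0322, 0.0376 and 0.0195 in somata and 0.0211, 0.0489 and 2.92e-06 in processes. That is 3 of 9 in each compartment, against 6.79% of all genes lower in somata and 6.09% lower in processes under the same model. These calls include Add2, which the study had already named as lower in processes. The neuronal markers moved in the same model, where 4 of 6 were lower in somata (Rbfox3, Tubb3, Syt1 and Slc17a7), and in processes 4 were lower (Rbfox3, Tubb3, Syt1 and Map2) and Slc17a7 was higher. Their log2 fold changes with the block lay between -0.67 and -0.31 where lower, and their part in the calls of Sptan1, Ank2 and Add2 was not tested. The contrasts of the 9 genes moved little in size: Sptan1 stayed at -0.31 in somata and was -0.34 in processes with the block, as against -0.35 without it. Replicate 1 exceeded replicate 2 in all 4 conditions for Sptbn1, Ank2, Ank3 and Add2, and replicate 2 exceeded replicate 1 in all 4 for Ank1. Sptan1, Sptbn4, Add1 and Add3 kept no single order, and the share of all genes that keep one was not counted. In somata control the oligodendrocyte marker Mbp had 10.2 CPM in replicate 1 and 26.6 CPM in replicate 2. The fibroblast marker Col1a1 had 24.2 and 8.70 CPM there. The part of the cell types in the block model was not tested.

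**Figure D1:**
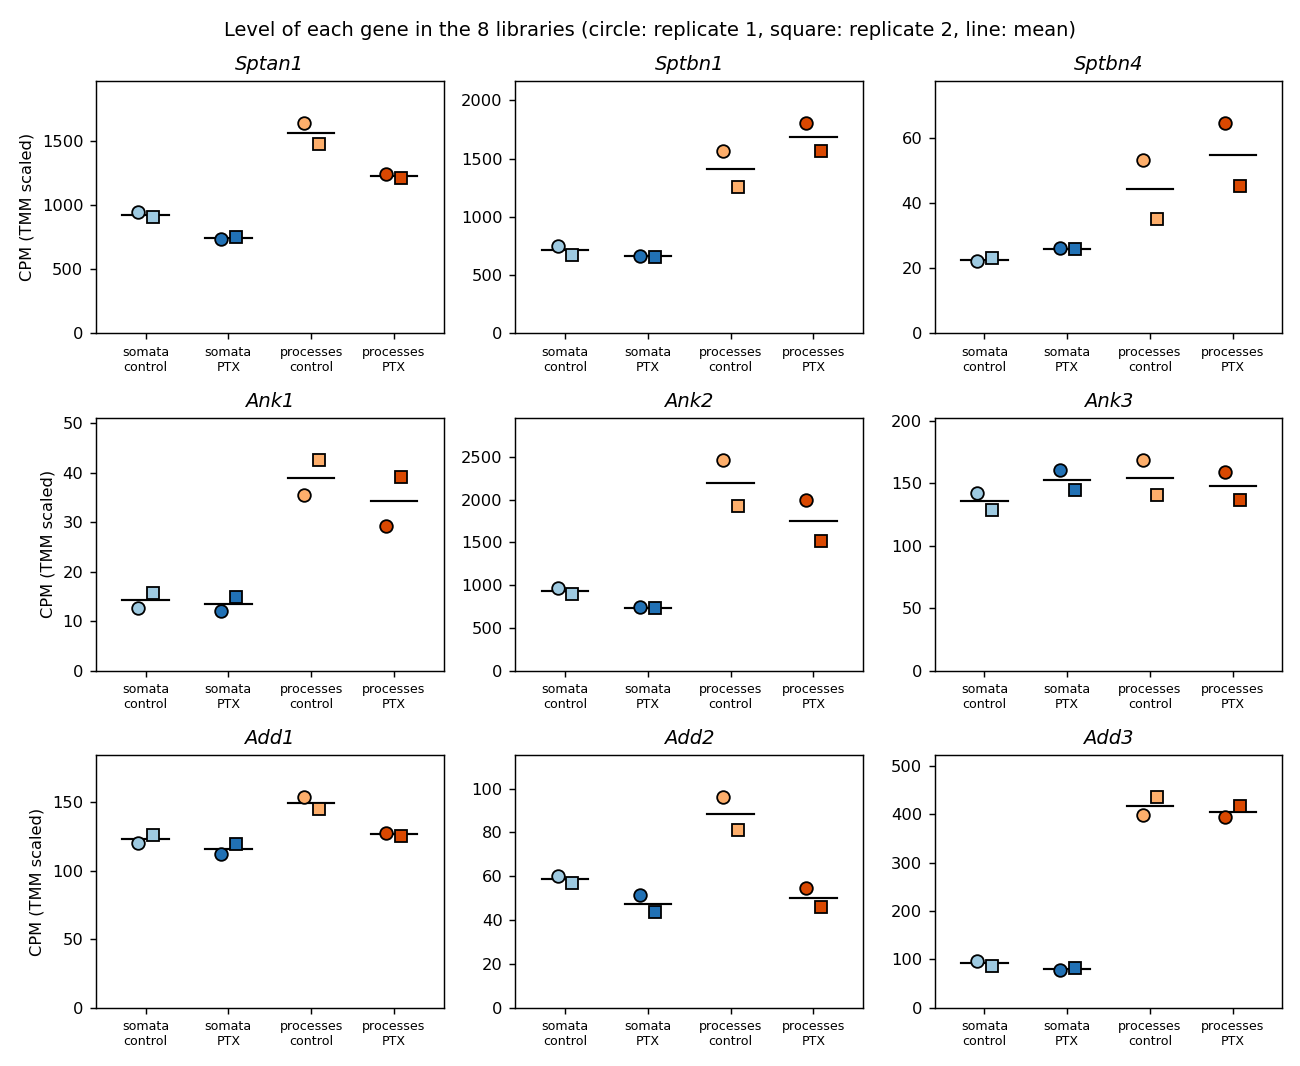
Level of each of the 9 genes in the 8 libraries, in CPM after TMM scaling on axes that start at 0, with circles for replicate 1, squares for replicate 2 and a line at the group mean. Add2 in processes stood at 96.0 and 80.9 CPM in control and at 54.4 and 46.0 CPM after PTX, and Add3 stood between 394 and 435 CPM in the 4 process libraries and between 77.7 and 97.5 CPM in the 4 somatic ones.

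The compartments themselves were compared within control and within PTX cultures. In control cultures 8 of the 9 genes were higher in processes than in somata, against 25.8% of all genes tested (21.9% were lower), and Ank3 was the exception. In PTX cultures 6 of the 9 were higher, against 25.7% of all genes (24% were lower), and Ank3, Add1 and Add2 did not pass. The median of the 9 differences was 0.96 in control and 1.08 in PTX cultures, beside -0.05 over all genes in each. These directions hold relative to the bulk of the nuclear transcripts, as TMM sets it: scaled by library size only, which counts the mitochondrial reads, the median of all genes shifted by -1.81 in control and by -1.82 in PTX cultures, and of the 9 genes only Add3 then stayed above 0. Markers of neurons and astrocytes differed between the compartments as well. Of the 6 astrocyte markers 2 were higher and 2 lower in control processes, the higher ones being Gfap (2.60) and S100b (2.16). Of the 6 neuronal markers 2 were higher (Map2 and Rbfox3) and 4 lower. In processes their summed level, given above, was mostly Map2, the mRNA of a dendritic microtubule protein. Map2 had 887 to 985 CPM in somata control and 4524 to 4693 CPM in processes control. Without Map2 the sum was 949 to 1063 CPM in somata control and 565 to 689 CPM in processes control. The part of the cell types in these differences was not tested.

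Sptan1 encodes αII-spectrin, the α chain of neurons, which pairs with every β chain. In somata it stood at 941 and 904 CPM in control and at 737 and 751 CPM after PTX. In processes the values were 1636 and 1477 CPM in control and 1242 and 1208 CPM after PTX. The PTX libraries lay below the control libraries in each compartment without overlap. The difference did not pass without the block (-0.31, 95% interval -0.57 to -0.05, adjusted p = 0.218 in somata, and -0.35, -0.61 to -0.08, adjusted p = 0.16 in processes, edgeR). In somata the groups of Sptbn1 did not overlap either, at an adjusted p of 0.809 (edgeR). The share of all genes without overlap was not counted. Against somata the process level of Sptan1 was higher by 0.75 in control cultures (adjusted p = 0.000449) and by 0.72 in PTX cultures (adjusted p = 0.00057), and with library size only both were below 0, at -1.06 and -1.11.

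Sptbn1 encodes βII-spectrin, the most general β chain of the brain and a main part of the periodic axonal lattice. It stood at 754 and 675 CPM in somata control and at 662 and 659 CPM in somata PTX. In processes it stood at 1566 and 1253 CPM in control and at 1804 and 1563 CPM after PTX, where the lower PTX library lay just under the higher control library. The PTX contrast was -0.11 in somata (95% interval -0.43 to 0.21) and 0.26 in processes (-0.06 to 0.58), with adjusted p-values of 0.809 and 0.42. Its level was higher in processes than in somata by 0.98 in control (adjusted p = 0.0003) and by 1.35 in PTX cultures (adjusted p = 3.19e-05), and it was -0.84 and -0.48 with library size only.

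Sptbn4 encodes βIV-spectrin, which sits with ankyrin-G at axon initial segments and nodes. It had 22.1 and 23.1 CPM in somata control, 26.0 and 25.8 CPM in somata PTX, 53.2 and 35.0 CPM in processes control and 64.4 and 45.0 CPM in processes PTX. The process libraries were the more scattered, with the groups overlapping, and the PTX contrasts of 0.20 and 0.31 had adjusted p-values of 0.733 and 0.499. Its level was higher in processes by 0.96 in control (adjusted p = 0.00261) and by 1.08 in PTX cultures (adjusted p = 0.00111), and it was -0.86 and -0.76 with library size only.

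Sptb, the β chain first known from red cells, is not 1 of the 9 genes and was named by the rule for partner genes, since it was called in processes. It stood at 45.1 and 43.6 CPM in somata control and at 42.5 and 40.0 CPM in somata PTX, and at 175 and 132 CPM in processes control and 102 and 74.7 CPM in processes PTX. It fell by 0.80 on the log2 scale in processes (adjusted p = 0.0263), while in somata the contrast was -0.11 (adjusted p = 0.853). The call was lost without replicate 1 of the control processes and without replicate 2 of the PTX processes, its log2 fold change lying between -1.04 and -0.58 and its adjusted p reaching 0.197. The difference between compartments had an unadjusted p of 0.0125 and an adjusted p of 1 (edgeR).

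The ratio of Sptbn1 reads to Sptan1 reads is free of the scaling between libraries. It was computed after the levels were seen and is given as a description. There were 0.801 and 0.746 reads of Sptbn1 per read of Sptan1 in somata control and 0.899 and 0.878 in somata PTX. In processes the ratio was 0.957 and 0.848 in control and 1.45 and 1.29 after PTX. The PTX libraries lay above the control libraries in each compartment, and those of the PTX processes above all others. These are ratios of reads and not of molecules, since the genes' lengths were not used.

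Among the ankyrins, Ank2 encodes ankyrin-B, which is spread along axons and binds transporters and L1-type adhesion molecules. It stood at 972 and 892 CPM in somata control and at 748 and 729.9 CPM in somata PTX. In processes it stood at 2463 and 1926 CPM in control and at 1992 and 1513 CPM after PTX. The somatic groups did not overlap, whereas in processes the higher PTX library exceeded the lower control library, each pair of the same number differing in the same direction. The contrasts were -0.34 (95% interval -0.70 to 0.03) and -0.32 (-0.69 to 0.04), with adjusted p-values of 0.374 and 0.363. Ank2 was higher in processes than in somata by 1.24 in control cultures (adjusted p = 0.000159) and by 1.25 in PTX cultures (adjusted p = 0.000141), and it was -0.58 and -0.59 with library size only.

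Ank1 encodes ankyrin-R, the ankyrin of red cells and of some neurons. It stood at 12.7 and 15.7 CPM in somata control, 12.1 and 14.9 CPM in somata PTX, 35.5 and 42.5 CPM in processes control and 29.3 and 39.1 CPM in processes PTX. Control and PTX overlapped in both compartments, and the contrasts were -0.08 and -0.19 with adjusted p-values of 0.911 and 0.674. Its level was higher in processes by 1.46 in control (adjusted p = 7.91e-05) and by 1.35 in PTX cultures (adjusted p = 0.00013). With library size only these became -0.35 and -0.47 and did not pass.

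Ank3 encodes ankyrin-G, the organiser of the axon initial segment, which recruits βIV-spectrin, sodium channels and neurofascin. It stood at 142 and 129 CPM in somata control, 161 and 145 CPM in somata PTX, 168 and 140.5 CPM in processes control and 159 and 136 CPM in processes PTX. All 8 libraries lay between 129 and 168 CPM, the smallest ratio of highest to lowest library among the 9 genes. The PTX contrast was 0.17 in somata (95% interval -0.11 to 0.46) and -0.06 in processes (-0.36 to 0.23), with adjusted p-values of 0.62 and 0.867. Processes and somata differed by 0.19 in control (95% interval -0.10 to 0.48, adjusted p = 0.259) and by -0.05 in PTX cultures (-0.34 to 0.24, adjusted p = 0.773). These intervals leave room for a difference of up to 0.48 on the log2 scale, and with library size only Ank3 was lower in processes, at -1.63 in control.

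By reads, Ank2 took 86.3 and 86.0% of the ankyrin total in somata control and 81.2 and 82.0% in somata PTX. Ank3 took 12.6 and 12.4% in somata control and 17.5 and 16.3% in somata PTX, so that its share was the higher in each PTX library. In processes the share of Ank3 was 6.32 and 6.66% in control and 7.30 and 8.08% after PTX.

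The genes whose profile over the 8 libraries came nearest to that of Ank3, by the root mean square difference of centred log2 CPM, were Cdk5r1 (0.0407), Nicn1 (0.0540) and Fam160a2 (0.0584). The median of this distance over the 10207 genes compared was 0.338. Those nearest to Add2 were Lzts3 (0.0567), Tef (0.0815) and Ncdn (0.0892), with a median over all genes of 0.476. The named genes were picked for the smallest distance, so they lie below the median by construction.

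The adducins act as α with β or α with γ pairs. Add1 encodes the α subunit, Add2 the β subunit, which is restricted mainly to brain and blood cells, and Add3 the γ subunit, which is found in most tissues. The windows from 250 bases before to 50 after their annotated starts are shown here because the results below turn on these 3 genes. They come from RefSeq on the GRCr8 build and not on the Rnor_6.0 build of the counts, 5′ to 3′ on the gene's own strand, and windows were found for 8 of the 9 genes. The capitals mark the GC box, spelled GGGCGG, and the CCAAT box as its name spells it, on either strand. They lie at chr14:80391683-80391982 on the minus strand for Add1, at chr4:120054628-120054927 on the plus strand for Add2 and at chr1:262152518-262152817 on the plus strand for Add3. The start used for Add2 lies inside the span of the gene, whose other transcripts start further upstream.
Add1: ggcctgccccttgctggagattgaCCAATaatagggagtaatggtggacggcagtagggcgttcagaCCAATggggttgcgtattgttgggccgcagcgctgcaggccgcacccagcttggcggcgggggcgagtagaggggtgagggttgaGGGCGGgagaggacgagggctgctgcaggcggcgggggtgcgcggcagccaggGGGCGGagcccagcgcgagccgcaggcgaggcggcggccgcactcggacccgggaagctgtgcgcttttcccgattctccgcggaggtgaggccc
Add2: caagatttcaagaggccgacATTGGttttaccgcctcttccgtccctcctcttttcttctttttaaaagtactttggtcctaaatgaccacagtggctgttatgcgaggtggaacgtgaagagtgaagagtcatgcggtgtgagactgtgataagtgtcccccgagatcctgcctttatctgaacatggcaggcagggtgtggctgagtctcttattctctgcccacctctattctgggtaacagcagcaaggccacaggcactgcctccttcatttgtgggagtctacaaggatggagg
Add3: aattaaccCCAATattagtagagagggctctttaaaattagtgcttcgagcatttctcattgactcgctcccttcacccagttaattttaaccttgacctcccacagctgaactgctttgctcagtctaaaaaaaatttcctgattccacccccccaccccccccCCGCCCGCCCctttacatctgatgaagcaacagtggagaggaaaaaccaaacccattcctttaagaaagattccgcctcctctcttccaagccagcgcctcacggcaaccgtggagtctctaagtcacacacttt

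The window of Add1 is 70% G and C with 29 CpG dinucleotides and holds 2 GC boxes and 2 CCAAT boxes. That of Add2 is 50% G and C with 7 CpG dinucleotides and holds no GC box and 1 CCAAT box. That of Add3 is 48% G and C with 8 CpG dinucleotides and holds 2 GC boxes that overlap and 1 CCAAT box. Over the 33469 windows of this length the medians are 51.7% and 7 CpG dinucleotides, a GC box is found in 33.1% and a CCAAT box in 37.5%. A match of letters is a description and not a bound site, and the counts do not say which start the cultures used.

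Add2 stood at 60.2 and 57.1 CPM in somata control and at 51.5 and 43.6 CPM in somata PTX. In processes it stood at 96.0 and 80.9 CPM in control and at 54.4 and 46.0 CPM after PTX. Both PTX process libraries lay below both control process libraries. The fall in processes of 0.82 had a 95% interval of -1.12 to -0.52, and the likelihood ratio test gave an adjusted p of 1.3e-05. The call was lost without replicate 1 of the control processes and without replicate 2 of the PTX processes, the log2 fold change ranging from -0.94 to -0.69 and the adjusted p reaching 0.093 when each of the 8 libraries was left out in turn. In somata the contrast was -0.30 (95% interval -0.59 to -0.01, adjusted p = 0.291, and 0.0195 with the replicate block).

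Set against somata, Add2 stood as follows. In control cultures Add2 was higher in processes than in somata by 0.59 (95% interval 0.30 to 0.89, adjusted p = 0.00392), and in PTX cultures the difference was 0.08 (-0.22 to 0.38, adjusted p = 0.656). With library size only it was -1.22 and -1.75. Tested directly, as an interaction, the PTX effect was lower in processes than in somata by 0.52 on the log2 scale (95% interval -0.93 to -0.10, unadjusted p = 0.0199, edgeR), which did not pass after adjustment (adjusted p = 1, and 0.149 with the replicate block). None of the 9 genes passed this test, where 0% of all genes did in the quasi-likelihood test of edgeR. Of the 9, 1 had an unadjusted p under 0.05, as did 572 of all genes. Over all genes the likelihood ratio test called 4 and the block model 15, and 0 of the 9 were among them. The study marked Add2 as lower in processes in its analysis of the same libraries. It also reported qPCR and single-molecule in situ hybridization for Add2. By qPCR it reported differential regulation of Add2 by PTX. In the in situ hybridization, dendritic puncta fell with PTX and somatic puncta were unaffected. The qPCR and in situ measurements were not used here.

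**Figure D2:**
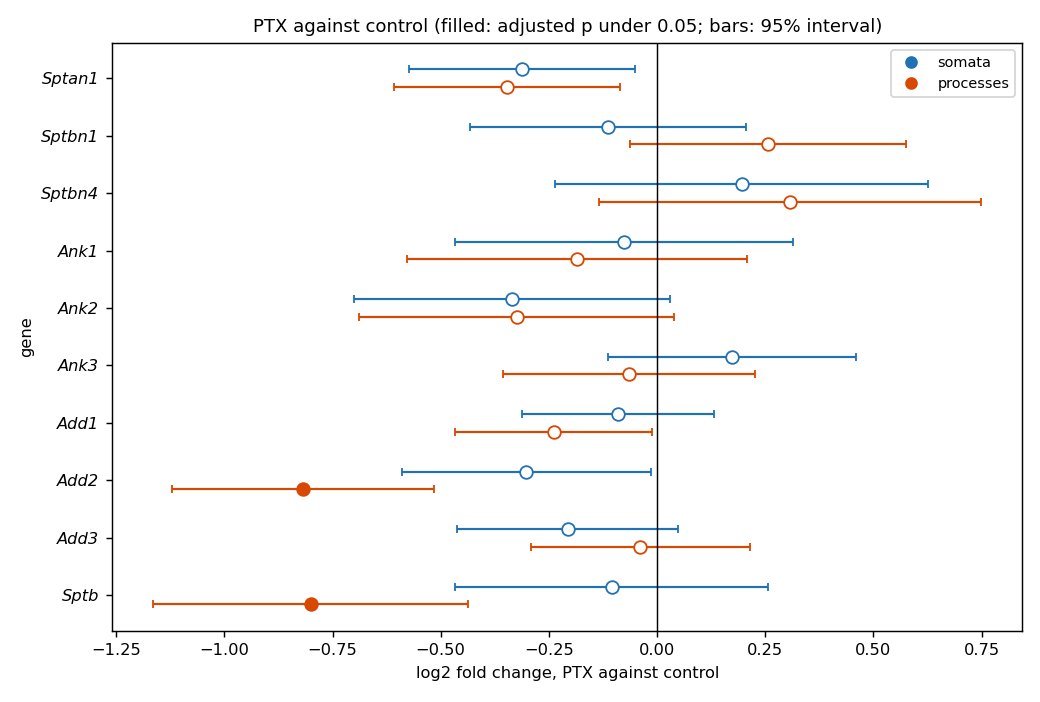
Log2 fold change of PTX against control for the 9 genes and for Sptb in somata (blue) and processes (orange), with 95% intervals and filled points where the adjusted p of edgeR is under 0.05. Filled points are found in processes only, for Add2 (-0.82) and Sptb (-0.80), and the difference between compartments did not pass for either.

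Add1 stood at 121 and 126 CPM in somata control, 112 and 119 CPM in somata PTX, 154 and 145 CPM in processes control and 127 and 126 CPM in processes PTX. The PTX libraries lay below the control libraries in each compartment, narrowly in somata. The contrasts were -0.09 (adjusted p = 0.776) and -0.24 (95% interval -0.47 to -0.01, adjusted p = 0.274). In control cultures Add1 was higher in processes by 0.28 (adjusted p = 0.0453), a call that was lost in each of the 8 fits that leave out a library and kept in 4 of all 18 alternatives. With library size only it passed in the opposite direction, at -1.54. In PTX cultures the difference was 0.13 (adjusted p = 0.325).

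Add3 was the gene of the 9 with the largest difference between compartments. It stood at 97.5 and 85.9 CPM in somata control, 77.7 and 81.2 CPM in somata PTX, 397 and 435 CPM in processes control and 394 and 416 CPM in processes PTX. The 4 process libraries lay far above the 4 somatic ones, while control and PTX overlapped in processes. The process level was 4.54-fold that of somata in control cultures (log2 2.18, standard error 0.120, adjusted p = 7.15e-07) and 5.10-fold in PTX cultures (log2 2.35, standard error 0.120, adjusted p = 5.78e-07). It stayed above 0 under every alternative, library size only included, and was called in all 18. The PTX contrast was -0.21 in somata (95% interval -0.46 to 0.05, adjusted p = 0.455) and -0.04 in processes (-0.29 to 0.21, adjusted p = 0.92). The 6 astrocyte markers differed among themselves between the same libraries. In control cultures Gfap (2.60) and S100b (2.16) were higher in processes, Slc1a3 (-0.56) and Gja1 (-0.38) were lower, and Aqp4 (0.08) and Aldh1l1 (0.43) did not pass. In PTX cultures 3 were higher and 0 lower. Their part in the difference of Add3 was not tested.

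**Figure D3:**
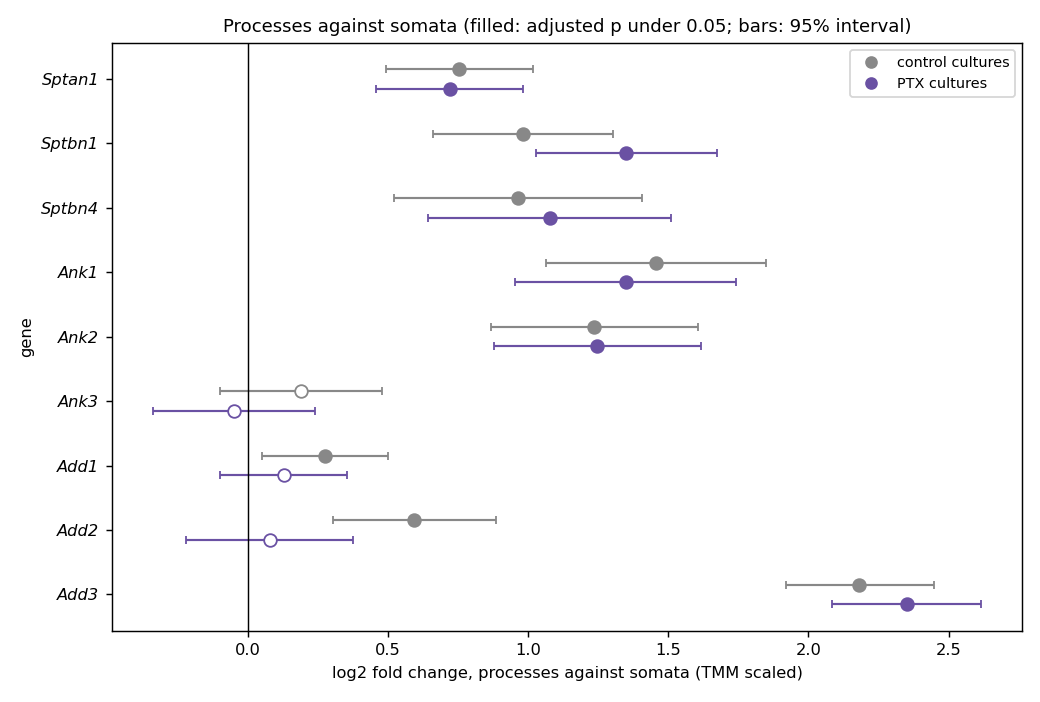
Log2 difference of processes against somata for the 9 genes in control cultures (grey) and PTX cultures (purple) after TMM scaling, with 95% intervals and filled points where the adjusted p of edgeR is under 0.05. Add3 stands apart at 2.18 and 2.35, Ank3 lies at 0.19 and -0.05, and Add2 lies at 0.59 in control and 0.08 in PTX cultures.

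Within the family, the make-up of adducin reads differed between somata and processes. Add1 took 45.1% ± 2.55 (SD, n = 2) in somata control and 22.9% ± 1.27 in processes control, and Add3 took 33.5% ± 2.22 and 63.6% ± 3.10. The share of Add2 was 21.4% ± 0.318 in somata control, 19.6% ± 2.46 in somata PTX, 13.5% ± 1.83 in processes control and 8.64% ± 1.15 in processes PTX. Per read of Add1, there were 0.625 and 0.558 reads of Add2 in processes control and 0.427 and 0.366 in processes PTX, so the β subunit transcript was the lower relative to the α subunit transcript in each PTX process library. In somata the same ratio was 0.500 and 0.452 in control and 0.458 and 0.365 after PTX, where the groups overlapped. These shares and ratios were chosen after the levels were seen and have no test.

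**Figure D4:**
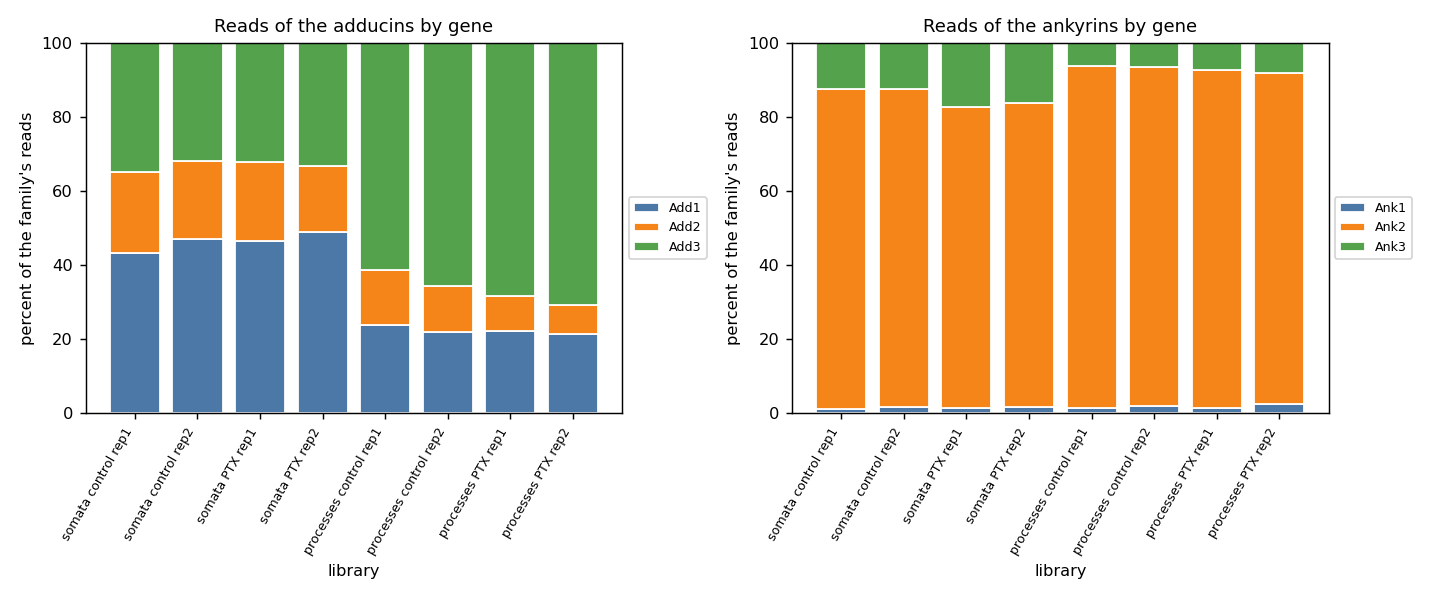
Percent of the reads of the 3 adducin genes (left) and of the 3 ankyrin genes (right) that each gene took, as stacked bars from 0 to 100% for each of the 8 libraries. Add3 took 61.4 to 70.8% of adducin reads in the process libraries and 31.9 to 35.0% in the somatic ones, and Ank3 took 12.4 to 12.6% of ankyrin reads in somata control and 16.3 to 17.5% in somata PTX.

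Partner genes of the skeleton were read from 3 lists. Of all genes tested, 3.59% passed with PTX in somata and 3.74% in processes, in either direction, and 14% and 11.2% with the replicate block. The likelihood ratio test called 972 of the 14309 genes in somata and 949 in processes. Of 20 other spectrins and partners of the actin junction, 15 were tested, and Sptbn5 and Mpp1 were not matched in the table. The 3 listed genes that did not reach the filter were Epb42 with 0 to 5 reads, Tmod4 with 8 to 32 and Tpm2 with 2 to 20. With PTX, 1 of the 15 rose and 1 fell in each compartment. With the block 2 rose and 2 fell in somata, and 2 rose and 3 fell in processes, and the likelihood ratio test called 3 and 4. Tmod1, a tropomodulin that caps slow-growing actin ends, rose by 1.34 in somata (17.2 and 13.3 CPM after PTX against 7.06 and 5.05 CPM in control, adjusted p = 0.00425), and was 0.82 in processes (adjusted p = 0.109). Tmod2, the neuronal tropomodulin, fell by 0.48 in somata (adjusted p = 0.027). Tpm4, a tropomyosin of non-muscle actin, rose by 0.95 in processes (adjusted p = 0.00767) and was 0.59 in somata (adjusted p = 0.0558). The gene that fell in processes was Sptb.

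The list of 23 axon initial segment proteins and membrane proteins bound by ankyrins was tested in full. With PTX 2 rose and 3 fell in somata, and 1 rose and 3 fell in processes, with a median log2 fold change of -0.21 and -0.17 in the 2 compartments, beside -0.01 over all genes. With the block 5 rose and 8 fell in somata, and 2 rose and 6 fell in processes, and the likelihood ratio test called 8 and 5. L1cam, an adhesion molecule anchored by ankyrins, fell by 0.94 in each compartment (adjusted p = 0.00425 and 0.00827). Fgf13, a cytosolic partner of sodium channels, fell by 41.3% in somata and by 50.1% in processes (adjusted p = 0.0114 and 0.00444). Atp1b1, a β subunit of the sodium pump, rose by 0.56 and by 0.76 (adjusted p = 0.0473 and 0.0166). Scn2b, a sodium channel β subunit, fell by 0.56 in somata (adjusted p = 0.0389), and Ndel1, a dynein regulator found at the initial segment, rose by 0.57 there (adjusted p = 0.0173). Scn8a, the sodium channel of mature initial segments, fell by 0.59 in processes (adjusted p = 0.0309) and was -0.48 in somata (adjusted p = 0.051). Of 16 calpains, kinases, calmodulins and other regulators of spectrin and adducin, 0 were called with PTX in either compartment by edgeR's quasi-likelihood test. At an unadjusted p under 0.05 there was 1 in each compartment, the replicate block called 1 in each, and the likelihood ratio test called 0 in somata and 1 in processes.

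Leaving out each library in turn sorted these partner calls. L1cam in somata and Fgf13 in processes kept their calls in all 8 fits. Tmod1 lost its call in somata without replicate 2 of the control somata (adjusted p = 0.0583, edgeR), Tpm4 in processes without replicate 1 of either process group, and L1cam in processes without replicate 1 of the control or replicate 2 of the PTX processes. Fgf13 lost its call in somata without replicate 1 of either somatic group. Tmod2, Ndel1 and Scn2b lost theirs when any of the 4 somatic libraries was left out, and Atp1b1 in processes when any of the 4 process libraries was. Scn8a lost its call in processes without replicate 1 of the control somata, replicate 1 of the control processes or either PTX process library, and Atp1b1 in somata in all 8 fits.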

How the data were processed

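Ribosome-depleted total RNA of somata and processes was sequenced from 2 control and 2 PTX libraries per compartment. The authors deposited raw counts, whole numbers of reads per gene symbol, without normalization. For these counts the submitters' processing notes name STAR and the study's methods name Subread as the aligner; both name featureCounts and the rat build Rnor_6.0, and the annotation was Ensembl. The library kit is directional, but the strand setting of the counting is not given in the sources used here, so overlapping and antisense genes, and near-identical copies such as the calmodulin genes, are uncertain. The authors' deposited PTX comparisons (log2 fold change, log2 CPM, likelihood ratio, p-value, false discovery rate and biotype) were not used.

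Groups and replicate numbers came from the sample labels. The 14309 symbols that exceeded 20 reads in 2 or more libraries entered a model in edgeR 4.0.16 (R 4.3.3), with TMM factors and 1 coefficient for each of the 4 groups over all 8 libraries, so that the groups share their spread. Contrasts were tested with the quasi-likelihood test and adjusted by Benjamini-Hochberg over all 14309 genes, with a threshold of 0.05. Standard errors are the fold change divided by the root of the F statistic. The likelihood ratio test was the study's. The fit was run on simulated counts with known changes, and this run set no limit on false calls. The simulated libraries had no effect of the replicate number, so they do not check the calls made with the block.

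Each result was recomputed with the likelihood ratio test, with DESeq2 1.42.0, with library size only, upper quartile factors, RLE factors or TMM factors from nuclear genes alone, with no filter or a minimum of 10 reads in all libraries, from the 4 libraries of a contrast alone, with the replicate number as a block, and with each library omitted.

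The replicate numbers come from the labels, which do not say what they mark. Across genes, the deviations of same-numbered libraries from their group means correlated at r = 0.274 to 0.54 for the 6 pairs of groups, so the numbers were taken to pair the libraries, and the block lowered the common dispersion from 0.0132 to 0.00459.

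All 9 genes are named in every contrast. From each partner list, the genes named are taken from those called in a contrast, of PTX or of compartments, at most 3 per direction in each contrast, by size of change, and for Ank3 and Add2 the 3 nearest profiles, from genes averaging 5 CPM or more. The genes followed and the lists were chosen with earlier results of these data known. Some listed genes are not reported here, and the counts of the lists leave them out. Windows and motif counts come from RefSeq sequences. Counting error alone gives a coefficient of variation of 6.26% at the lowest count of Ank1, and reads without molecular identifiers are not independent molecules.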

Additional observations from a re-analysis of the deposited data

Results flagged for a closer look

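For 2 of the 9 genes the PTX effect pointed in opposite directions in somata and processes in both replicate pairs. Sptbn1 stood at -0.11 in somata and 0.26 in processes, and the interaction was 0.37 on the log2 scale (95% interval -0.08 to 0.82). Ank3 stood at 0.17 in somata and -0.06 in processes, and the interaction was -0.24 (95% interval -0.65 to 0.17). The interaction was tested with the quasi-likelihood test of edgeR and had an adjusted p of 1 for each gene, and of 0.432 and 0.617 with the replicate block. The same pattern of signs was found in 1500 of the 14309 genes tested, or 10.5%, against 22.2% of the 9. Groups of 2 libraries are too small for a test of single outlying libraries.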

How the results depend on the processing

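Of the 9 genes, 0 were called with PTX in somata and 1 in processes, and with the replicate block 3 in each; the block changed no other call among the 9 in any comparison. Leaving out each library gave 0 called in somata and 0 to 1 in processes. The 8 genes higher in processes in control and the 6 in PTX cultures became 1 and 1 with library size only, and moved by no more than 1.5 times under the other alternatives (7 of the 9 in control and 6 in PTX cultures with any library left out). The interaction called 0 under every alternative run. Library size only turned the compartment difference below 0 for every gene of the 9 other than Add3. In control cultures the values were -1.06 for Sptan1, -0.84 for Sptbn1, -0.86 for Sptbn4, -0.35 for Ank1, -0.58 for Ank2, -1.63 for Ank3, -1.54 for Add1 and -1.22 for Add2. In PTX cultures they were -1.11, -0.48, -0.76, -0.47 and -0.59 for Sptan1, Sptbn1, Sptbn4, Ank1 and Ank2, and -1.70 and -1.75 for Add1 and Add2. This scaling counts the mitochondrial reads, which were 68.52% or more of every process library. It also gave 0.01 for Add3 with PTX in processes and -0.01 for the interaction of Ank2. Upper quartile factors, which shifted the median of all genes by -0.20 and -0.18, gave -0.02 for Ank3 in control and -0.05 and -0.10 for Add1 and Add2 in PTX cultures. Values that were not called changed sign when a library was left out for Ank1 with PTX in somata (-0.24 to 0.08) and in processes (-0.41 to 0.01), Ank3 (-0.19 to 0.07) and Add3 (-0.10 to 0.03) with PTX in processes, and Ank3 (-0.16 to 0.06) and Add2 (-0.05 to 0.21) between compartments in PTX cultures. The interaction did so for Sptan1 (-0.11 to 0.04), Sptbn4 (-0.17 to 0.45), Ank1 (-0.34 to 0.08) and Ank2 (-0.20 to 0.20). Where a fit left out a library, the lone library of its group was assumed to vary like the other groups. Of all single-gene values under an alternative, partner genes included, 1032 kept direction and side of the threshold, 61 lost and 26 gained a call, and 42 changed sign; except as stated above, the cause was not tested.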

Other observations

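The partners of the membrane skeleton were compared between compartments by list. Of all genes tested, 25.8% were higher and 21.9% lower in control processes than in somata, and 25.7% and 24% in PTX cultures. Of the 15 tested spectrins and actin junction partners, 8 were higher and 1 lower in control processes than in somata, and 7 were higher and 3 lower in PTX cultures. Epb41l1, the neuronal protein 4.1N that strengthens the contact of spectrin with actin, was higher by 1.83 in control and by 2.22 in PTX cultures. Dmtn, the actin bundling protein dematin, was lower by 0.57 and by 1.08. With library size only, 2 of the 9 calls in control and 4 of the 10 in PTX cultures kept their sign, Epb41l1 (0.03 and 0.40) among them in each.

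Of the 23 initial segment and ankyrin-bound proteins, 2 were higher and 10 lower in processes in both control and PTX cultures. The sodium channels Scn1a and Scn2a were lower by 1.29 and 1.21 in control and by 1.76 and 1.35 in PTX cultures, and Atp1b1 by 1.52 and 1.33. Fgf13 was higher by 1.22 and 0.98, and Camsap2, which caps the minus ends of microtubules, by 0.55 and 0.49, and with library size only both were below 0. The other 10 calls kept their sign under all 4 scalings tried. Of the 16 regulators, 5 were higher and 1 lower in control, and 7 were higher and 0 lower in PTX cultures. Rock1, a kinase that phosphorylates adducin, was higher by 0.76 in control and by 1.05 in PTX cultures. With library size only the higher calls of this list all fell below 0, and Calm2, the 1 that was lower in control, kept its sign.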
